A study of Mus musculus with 2 samples.

Results

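The genes described here encode the aminoacyl-tRNA synthetases, the enzymes that join each amino acid to its transfer RNA (tRNA). They were chosen by symbol, as 36 listed genes of the 24421 in the deposited tables: 20 whose products act mostly in the cytosol and 16, with symbols ending in ars2, whose products act in mitochondria. All 36 were found, and all had values above 0 in both libraries. The data are 2 RNA-seq libraries of 3T3-L1 cells, a mouse preadipocyte line labelled with the C57BL/6 strain background and used at passages 10 to 13. Both cultures were taken 2 days past confluence and then received insulin (1 µg/mL), dexamethasone (0.25 µM) and IBMX (0.5 mM) for 2 days with 10% fetal bovine serum, followed by insulin alone. The control culture had no further treatment. In the other culture DF, a multi-herbal composition that the title calls DF-GA70, was present until harvest; no label states its dose or the time of harvest. With 1 library per group there is no replicate error and no test between the groups. All differences below are DF minus control for these 2 libraries only.

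Each synthetase recognises 1 amino acid, or in the case of Eprs a pair of them, and its matching tRNAs, activates the amino acid with ATP and transfers it to the tRNA. The enzymes fall into class I and class II by the fold of the catalytic domain. In mammals a group of cytosolic synthetases is held together in the multisynthetase complex by the scaffold proteins encoded by Aimp1, Aimp2 and Eef1e1. Mitochondria translate their own small set of respiratory chain subunits with a separate set of nuclear-encoded synthetases, except that Gars and Kars each supply both compartments. When a tRNA stays uncharged, the kinase GCN2 (Eif2ak4) raises translation of the transcription factor ATF4, and many cytosolic synthetase genes are known ATF4 targets.

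Values were deposited as log2 numbers, and the libraries look as if forced onto the same distribution: the highest 140 sorted values are identical in the 2 files. Sequencing depth is unknown. The libraries read transcript ends, so values were taken as not divided by transcript length, though no label states this. Levels of different genes are compared on the deposited log2 scale as they stand. A gene was examined when it reached 8.18 (log2), the median of all non-zero values, in at least 1 library, and counted as higher or lower at a difference of 1.5-fold or more (0.58 on the log2 scale). By that rule 6761 genes were examined, with a median difference of 0.01 log2 units. Of these, 10.2% were higher and 10.9% lower with DF. The cells carried adipocyte transcripts in both libraries: all 10 mature adipocyte markers lay between 11.84 and 17.55. Of these markers, Cidec (0.67) and Cd36 (0.62) were higher with DF by 1.5-fold and 0 were lower, with a median difference of 0.29 log2 units. In both libraries Cidec and Cd36 lay among the highest 140 values, where a value gives only the rank. Of 5 examined preadipocyte and fibroblast markers, 4 were lower with DF, with a median difference of -1.34 over the 5, and 0 of 6 macrophage and 0 of 4 endothelial markers reached the floor, with Adgre1, Kdr and Tek listed at 0 in both. The part of the adipocyte and preadipocyte markers in any difference below was not tested, and a change in the share of such cells and a change of RNA per cell cannot be told apart in bulk RNA.

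Most synthetase genes stood at similar values in the control and the DF library. Of the 36 members, 26 were examined. Among them 2 were higher with DF by 1.5-fold, Dars and Iars2 (7.69%), against 10.2% of all examined genes. A further 3 were lower, Qars, Tars2 and Vars2 (11.5%), against 10.9% of all examined genes. These shares are close to the background, so the counts show no difference of the synthetases as a group. The other 21 examined members lay within 1.5-fold. Over all 36 members 18 differences were positive and 18 negative, with a median of 0.00 log2 units, beside 0.04 for the 11744 genes above 0 in both libraries. At a limit of 2-fold, 0 of the 26 were counted in either direction, against 2.56% (higher) and 3.21% (lower) of the examined genes.

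**Figure D1:**
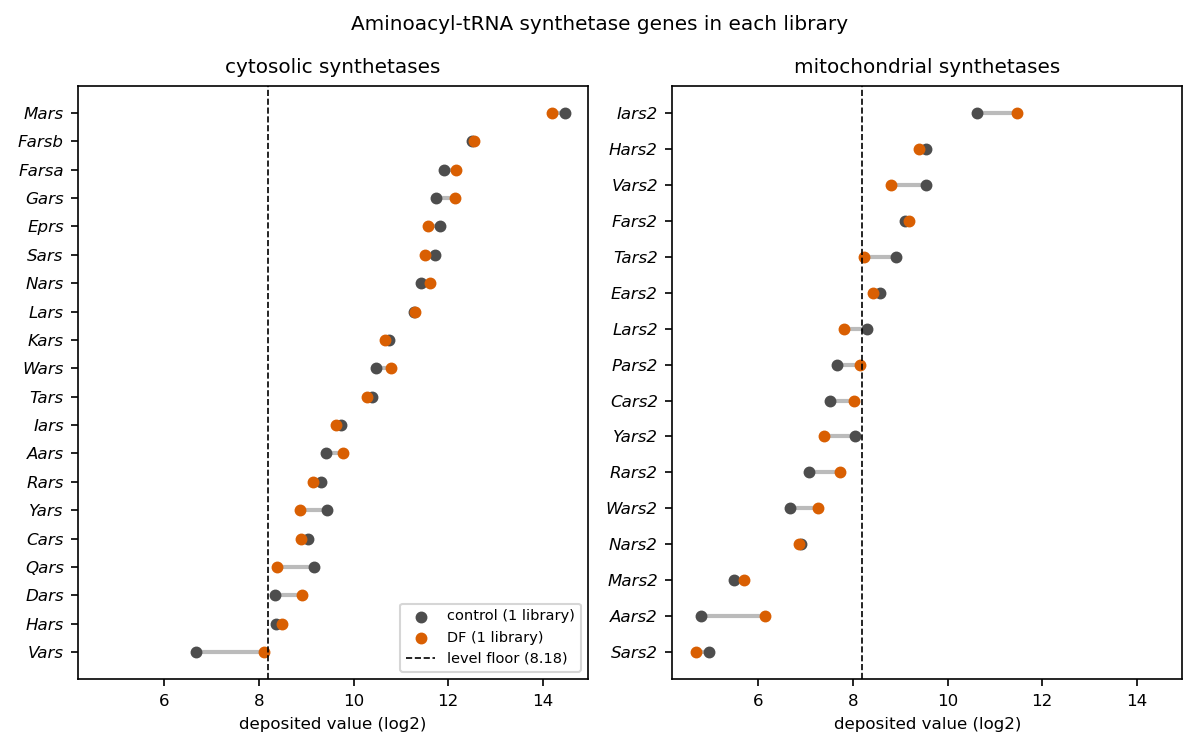
Deposited log2 value of each synthetase gene in the control library (grey) and the DF library (orange), ordered by mean within cytosolic (left) and mitochondrial (right) members; each point is 1 library and the dashed line is the level floor of 8.18. Mars stands highest at 14.46 and 14.20, and 9 of the 16 mitochondrial members lie below the floor in both libraries.

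The cytosolic enzymes were well above the floor for the most part. Their median level was 10.43 in the control and 10.47 with DF, and 8 of the 20 exceeded 11 in both libraries. Of the 19 examined, 1 was higher by 1.5-fold, 1 was lower (5.26% each) and 17 lay within the limit, beside 10.2% higher and 10.9% lower of all examined genes. The median difference over all 20 was -0.03 log2 units. Mars, the methionyl-tRNA synthetase, had the highest value of any member, 14.46 in the control and 14.20 with DF. It ranked 95 and 116 among all genes and so lies among the highest 140 values, where a value gives only the rank. The genes next in level encode both chains of the phenylalanyl enzyme. Farsb, the beta chain, had values of 12.51 (control) and 12.56 (DF), and Farsa, the alpha chain, of 11.92 and 12.17. These chains form 1 enzyme, and their differences were 0.05 and 0.25 log2 units.

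Dars, which charges tRNA with aspartate, had values of 8.33 (control) and 8.92 (DF). The difference of 0.59 log2 units lay just past the limit. Counted with sign, so that every negative difference is smaller, 89.8% of the examined genes had a smaller one. Qars, the glutaminyl enzyme, had values of 9.16 (control) and 8.38 (DF), 1.71-fold lower (-0.78). Yars, the tyrosyl enzyme, was just inside the limit, at 9.45 and 8.88, 1.49-fold lower. For scale, the spread of differences over all 1838 genes between levels 8 and 9 (mean of both libraries) had a robust SD of 0.52 log2 units, and that over the 1782 genes between 9 and 10 had 0.46. The differences of Dars, Qars and Yars were thus between 1 and 2 such spreads in size. Dars lies on chromosome 1, 128363707 to 128417368 on the minus strand (GRCm38), and Qars on chromosome 9, 108507706 to 108515941 on the plus strand. No other annotated gene overlaps either of them.

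Vars, the valyl enzyme, had the largest difference of any member but did not reach the floor. It had values of 6.67 (control) and 8.10 (DF), 2.70-fold higher (1.43 log2 units). Genes between levels 7 and 8 had a robust SD of 0.65. Vars lies on chromosome 17, 35000987 to 35016322 on the plus strand, with no overlapping gene.

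The glycyl enzyme gene Gars and the lysyl enzyme gene Kars each serve the cytosol and the mitochondria. Gars had values of 11.75 (control) and 12.15 (DF), 1.32-fold higher, and Kars of 10.74 and 10.67. Both lay within the limit. The cysteinyl (Cars), histidyl (Hars), asparaginyl (Nars), arginyl (Rars), seryl (Sars) and tryptophanyl (Wars) enzyme genes also lay within it, with differences from -0.20 for Sars to 0.32 for Wars. Wars, whose product is also known as an interferon-inducible protein, had values of 10.47 (control) and 10.80 (DF).

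Genes of the multisynthetase complex were counted in both directions, at shares near those of all examined genes. Of its 8 listed genes (Dars, Eprs, Iars, Kars, Lars, Mars, Qars and Rars), Dars was higher by 1.5-fold, Qars was lower and 6 lay within the limit. These shares of 12.5% each way stand beside 10.2% higher and 10.9% lower of all examined genes. The median difference was -0.15 log2 units, with 2 positive and 6 negative values. Eprs, the fused glutamyl and prolyl enzyme, was at 11.82 and 11.58, and Lars, the leucyl enzyme, at 11.28 and 11.29. The scaffold genes were near equal in the libraries: Aimp1 was at 8.77 and 8.68, Aimp2 at 9.61 and 9.70, and Eef1e1, below the floor, at 7.66 and 7.81. The 12 cytosolic enzymes outside the complex had a median of 0.14, and 0 of the 11 examined passed the limit. The difference between the complex and the other enzymes was not tested. By catalytic fold, the 18 class I genes had a median of -0.13 and the 17 class II genes 0.08. In class I, 1 of 12 examined was higher (8.33%) and 2 were lower (16.7%). In class II, 1 of 13 was higher and 1 was lower (7.69% each).

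**Figure D2:**
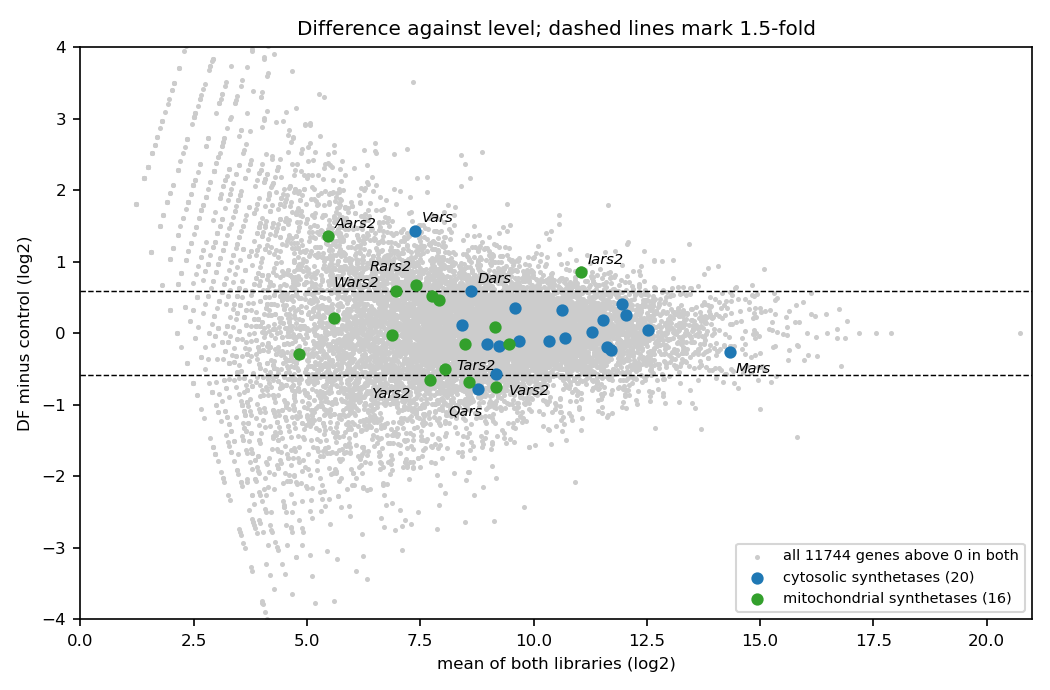
DF minus control (log2) against the mean of both libraries for all 11744 genes above 0 in both (grey), with cytosolic (blue) and mitochondrial (green) synthetases marked and the 1.5-fold limit dashed; the axis stops at 4 log2 units and leaves out 40 genes. The members lie inside the grey cloud, which widens toward low levels, and Iars2 and Vars lie near its upper edge at their levels.

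The mitochondrial enzymes were mostly low, and their values went both ways. Their median level was 7.85 in the control and 7.91 with DF, and 3 of the 16 exceeded 9 in both libraries. Of the 7 examined, 1 was higher by 1.5-fold (14.3%), 2 were lower (28.6%) and 4 lay within the limit. Of all examined genes, 10.2% were higher and 10.9% lower, and the mitochondrial shares rest on 1 and 2 genes. The median difference of all 16 was 0.03 log2 units. Hars2, the histidyl enzyme, was among the 3 most abundant, at 9.54 (control) and 9.39 (DF). Fars2, the phenylalanyl enzyme, which works as a single chain, was at 9.10 and 9.19, and Ears2, the glutamyl enzyme, at 8.57 and 8.42.

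Iars2, the isoleucyl enzyme, was the most abundant mitochondrial member and the one with the largest difference among the examined members. It had values of 10.63 (control) and 11.48 (DF), 1.80-fold higher (0.85 log2 units), a difference above that of 95.8% of the examined genes when counted with sign. The robust SD of the 845 genes between levels 11 and 12 was 0.39. Iars2 lies on chromosome 1, 185284726 to 185329396 on the minus strand. Its 3′ end is covered over 2034 bases by Rab3gap2, which encodes a subunit of a Rab3 GTPase-activating complex and runs on the other strand. Rab3gap2 had values of 10.44 (control) and 11.15 (DF), 1 of the genes counted as higher, with a difference of 0.71. No label says if reads were counted by strand, so reads of these overlapping ends cannot be told apart.

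Vars2, the valyl enzyme, had values of 9.55 (control) and 8.80 (DF), 1.68-fold lower (-0.75). Tars2, the threonyl enzyme, was at 8.92 and 8.23, 1.61-fold lower (-0.69), just past the limit. Lars2, the leucyl enzyme, was just inside it, at 8.30 and 7.80 (1.42-fold lower). Vars2 lies on chromosome 17, 35655634 to 35667592 on the minus strand, where a noncoding antisense gene, Gm20483, covers its 3′ end. Tars2 lies on chromosome 3, 95739976 to 95760206 on the minus strand, with no overlapping gene.

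The 9 mitochondrial members below the floor had differences from -0.65 to 1.35 log2 units, all at levels where the spread over all genes is wide. Aars2, the alanyl enzyme, had values of 4.79 (control) and 6.14 (DF), where genes between levels 5 and 6 had a robust SD of 1.09. Rars2 (arginyl) was at 7.06 and 7.73 and Wars2 (tryptophanyl) at 6.67 and 7.26, both higher by at least 1.5-fold, whereas Yars2 (tyrosyl) was at 8.03 and 7.38, lower by 1.57-fold. Cars2 (cysteinyl), Mars2 (methionyl), Nars2 (asparaginyl), Pars2 (prolyl) and Sars2 (seryl) lay within the limit. Together with Vars, 4 of the 10 members below the floor were thus higher by 1.5-fold and 1 was lower. Among all 4984 genes above 0 in both libraries that missed the floor, 29.3% were higher and 22.7% lower.

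For 16 amino acid specificities a mitochondrial gene could be set beside its cytosolic counterpart. Eprs served as the counterpart of both Ears2 and Pars2, and Farsa as that of Fars2. The cytosolic gene had the higher level in 13 of 16 pairs, the same pairs in both libraries, with a median gap of 2.90 log2 units in the control and 3.07 with DF. The mitochondrial gene was the higher one for histidine, isoleucine and valine. In the valine pair the enzymes differed in opposite directions: the difference was 1.43 log2 units for Vars and -0.75 for Vars2, so the gap narrowed from -2.88 in the control to -0.70. In the isoleucine pair it widened, from -0.88 to -1.84, with Iars at 9.74 and 9.63. In the tyrosine pair both genes were lower with DF (-0.57 for Yars and -0.65 for Yars2). The differences of the 2 genes had the same sign in 7 of the 16 pairs.

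**Figure D3:**
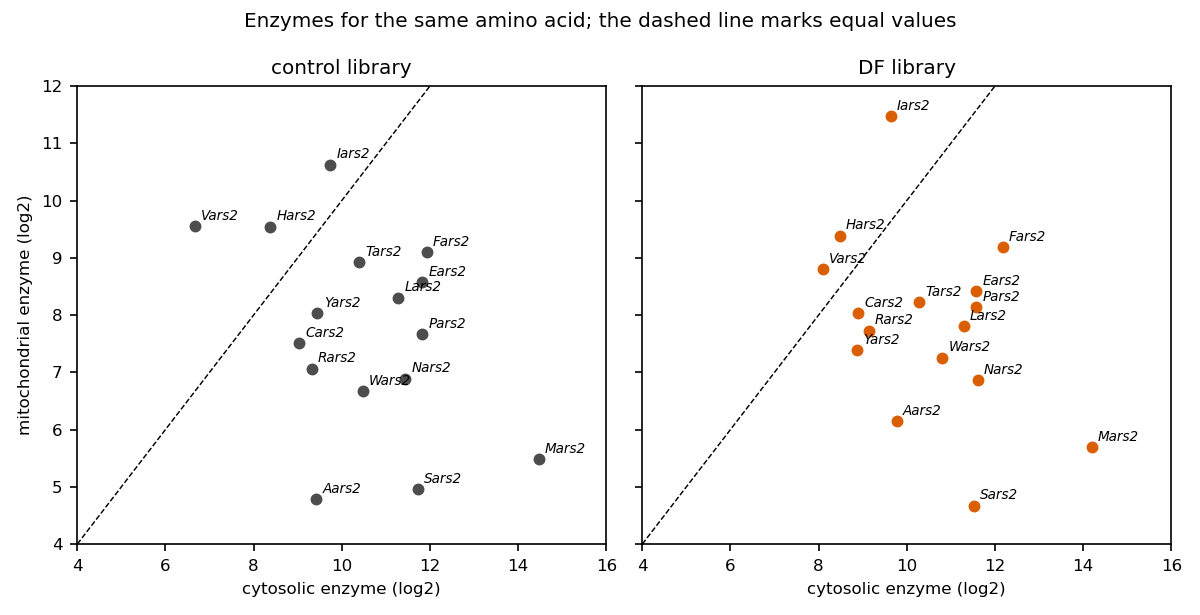
Deposited log2 value of each mitochondrial enzyme gene (vertical axis, labelled) against the cytosolic gene for the same amino acid (horizontal axis) in the control library (left) and the DF library (right); the dashed line marks equal values. Hars2, Iars2 and Vars2 lie above the line in both libraries and the other 13 below it.

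Another coding gene covers the 3′ end of 7 members, which matters for libraries that read transcript ends. The closest match in level was Mars with Ddit3, the gene of the stress factor CHOP, on the other strand. The annotated genes share 68 bases at their ends. Ddit3 had values of 14.52 (control) and 14.34 (DF), so Mars lay 0.06 and 0.14 log2 units below it. Mars also lay 1.96 and 1.64 log2 units above the next cytosolic member. The part of Ddit3 reads in the value of Mars was not tested. Farsb is covered by Sgpp2, which was at 4.40 and 3.82, far below Farsb in both libraries. The remaining partners differed in the opposite direction to the member: Yars and C77080 (-0.57 and 0.26), Cars2 and Carkd (0.52 and -0.45), Fars2 and Nrn1 (0.08 and -0.74) and Aars and Exosc6 (0.35 and -0.28). Carkd is an older symbol of Naxd. Of the 7, Cars2 did not reach the floor and only Iars2 was past the 1.5-fold limit, higher with DF. Of all examined genes, 10.2% were higher and 10.9% lower, so a count of 1 gene does not set the overlapped members apart.

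**Figure D4:**
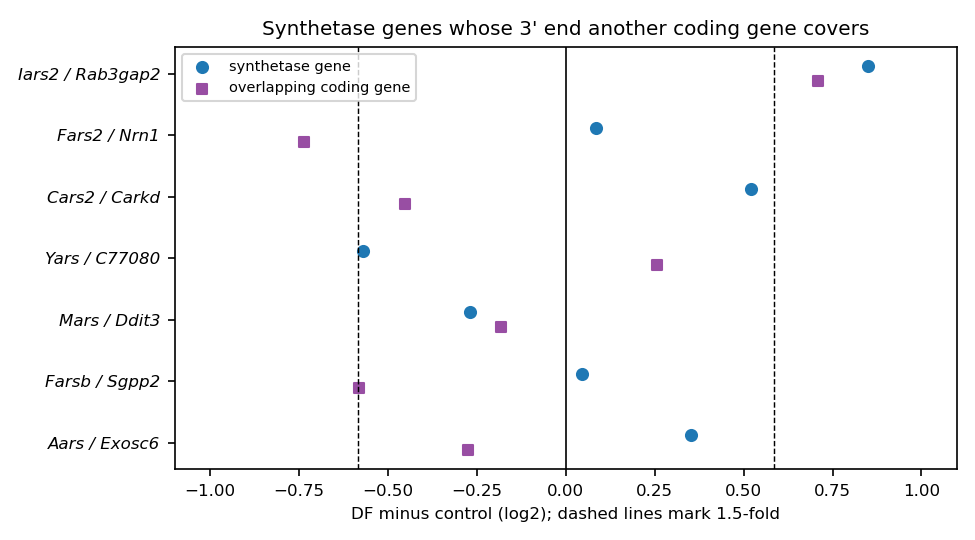
DF minus control (log2) of the 7 synthetase genes whose annotated 3′ end lies in another coding gene (circles) and of that gene (squares), with the 1.5-fold limit dashed. Both genes of the Iars2 and Rab3gap2 pair lie beyond the upper limit, at 0.85 and 0.71, and both of the Mars and Ddit3 pair lie below 0.

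Promoter windows were searched for motifs of factors known to act at such genes, ATF4 and MYC. RefSeq windows (GRCm38.p6, 250 bases before to 50 after the annotated start) were found for 26 of the 36 members. The core of the C/EBP-ATF response element, TGATGNAA on either strand, occurred in 5 of 12 cytosolic members with a window (Aars, Gars, Iars, Tars and Yars) and in 0 of 14 mitochondrial ones. It occurred in 3.97% of all 32851 windows and in 2.11% of the windows of examined genes. Of the 6 matches 4 read TGATGCAA and 2 TGATGAAA, and 5 lay on the strand opposite to the gene. The 6 stretches of 60 bases are shown with the position of each match from the RefSeq start. Every match lies near that start because only these windows were searched. Each stretch is written 5′ to 3′ on the gene's strand, with the match in capitals (TTGCATCA and TTTCATCA are the motif read on the other strand).
Aars, chr8:111033704-111033763, plus strand, match starting 112 bases before the start: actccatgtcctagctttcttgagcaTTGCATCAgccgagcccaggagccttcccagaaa
Aars, chr8:111033825-111033884, plus strand, match 9 bases after the start: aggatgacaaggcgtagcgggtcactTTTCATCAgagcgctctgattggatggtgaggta
Gars, chr6:55037945-55038004, plus strand, match 30 bases before the start: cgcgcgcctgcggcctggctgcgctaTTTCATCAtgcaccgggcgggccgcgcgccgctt
Iars, chr13:49682111-49682170, plus strand, match 7 bases after the start: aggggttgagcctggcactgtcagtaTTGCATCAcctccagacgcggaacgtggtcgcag
Tars, chr15:11399640-11399699, minus strand, match 15 bases before the start: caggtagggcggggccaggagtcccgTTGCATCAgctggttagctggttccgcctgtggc
Yars, chr4:129189880-129189939, plus strand, match 3 bases after the start: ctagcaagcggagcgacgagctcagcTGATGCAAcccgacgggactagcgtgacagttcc

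The 5 genes with this motif did not share a direction. Aars (alanyl) had values of 9.42 (control) and 9.77 (DF), and Gars was 0.40 log2 units higher. Iars and Tars (threonyl, at 10.38 and 10.28) each differed by -0.11, and Yars by -0.57. Their median was -0.11, beside -0.07 for the 7 cytosolic members with a window and no match. By 1.5-fold, 0 of the 5 were higher or lower, and of the 7 without a match 1 was higher and 1 lower. Of all examined genes, 10.2% were higher and 10.9% lower, so these few genes show no difference between the 2 groups. The E-box CACGTG, the site of MYC and related factors, occurred in the windows of 4 cytosolic members (Farsb, Aars, Iars and Tars) and of Ears2, and in 7.15% of all windows and 10.6% of those of examined genes. In Aars, Iars and Tars both motifs were present, without overlap. A match is a stretch of letters and shows no binding.

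Most examined ATF4 target genes outside the synthetases also lay within 1.5-fold. Atf4 itself had values of 14.95 (control) and 15.26 (DF), again among the highest values, which give ranks, and Eif2ak4, which encodes GCN2, at 8.66 and 8.49. Of 26 listed ATF4 targets 20 were examined: 0 were higher by 1.5-fold, 1 was lower (5%) and 19 lay within the limit. Of all examined genes, 10.2% were higher and 10.9% lower. The median was -0.04 over the 23 targets above 0 in both. The lower one was Gpt2, an alanine aminotransferase, at 11.24 and 10.07. Atf5, the most abundant, was at 15.01 and 15.58. The amino acid synthesis genes Asns and Psat1 were at 9.46 and 9.31 and at 13.33 and 13.24. Slc7a11, the cystine transporter, was at 6.59 and 7.61, below the floor. Also below it, Psph was at 7.68 and 7.03, Atf3 at 0 and 5.83, and Pycr1 at 5.61 and 0.

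Genes that sense uncharged tRNA or amino acids went both ways. Of 7 examined, 2 were higher by 1.5-fold (28.6%) and 1 was lower (14.3%), beside 10.2% and 10.9% of all examined genes. The higher ones were Sesn1 (7.93 to 8.77), which encodes a sestrin of the mTORC1 pathway, and Rragc (9.54 to 10.25), a Rag GTPase. Sesn1 was examined only because its DF value reached the floor of 8.18. Impact, an inhibitor of GCN2 activation, was lower (9.04 to 8.42).

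The genes of eEF1 encode subunits with different roles in the delivery of charged tRNA to the ribosome. Among them Eef1b2 and Eef1g were lower with DF by 1.5-fold, while Eef1a1, the gene of the carrier itself, and Eef1d lay within the limit. Of 9 delivery factors examined, 0 were higher and 3 were lower by 1.5-fold (33.3%), beside 10.2% higher and 10.9% lower of all examined genes. The median of the 9 was -0.52 log2 units, beside 0.01 for all examined genes. This list was chosen with earlier results of these data known. Eef1b2 had values of 13.85 (control) and 13.05 (DF) and Eef1g at 11.35 and 10.70. Eif2s3x, a subunit of the initiation factor that brings initiator tRNA, was at 11.01 and 9.66, 2.56-fold lower. Its other listed subunits lay within the limit, Eif2s1 at 8.50 and 8.58 and Eif2s2 at 13.43 and 13.30. Eef1a1, the most abundant, was at 15.34 and 14.83, and Eef1d at 14.20 and 13.69 (-0.52 each). The mitochondrial counterpart Tufm was at 9.20 and 9.48. Genes of eEF1 subunits have many pseudogenes, and no label says how reads that fit several copies were counted.

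The subunits of the glutamyl-tRNA amidotransferase, through which mitochondria make glutaminyl-tRNA without an enzyme of their own for it, were higher with DF in all 3 cases but below the floor. Qrsl1 had values of 6.68 (control) and 7.39 (DF), Gatb at 5.72 and 6.36, and Gatc at 6.73 and 7.40. Their differences were 0.71 log2 units for Qrsl1 and 0.67 for Gatc, slightly above the robust SD of 0.65 between levels 7 and 8, and 0.64 for Gatb, below the 0.85 of the 1195 genes between levels 6 and 7. Genes for editing and proofreading had 0 of 5 examined past the limit, with Aarsd1, the most abundant, at 10.06 and 10.30. In tRNA maturation and export 1 of 9 examined was higher (11.1%, beside 10.2% of all examined genes) and 0 were lower (beside 10.9%). The higher one was Pop7, a subunit of ribonuclease P, at 8.15 and 8.75, examined only because its DF value reached the floor. Ssb, the La protein and most abundant of the list, was at 12.33 and 12.06. Of 3 genes for initiator and selenocysteine tRNA, 0 were examined.

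**Figure D5:**
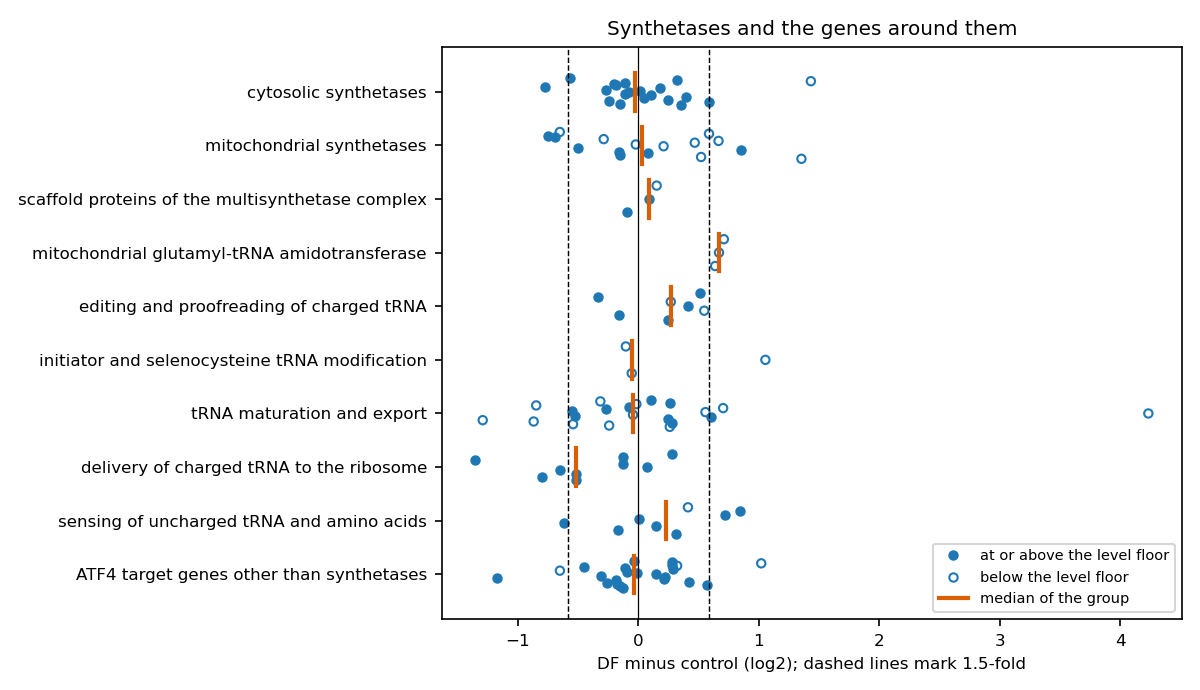
DF minus control (log2) of each gene above 0 in both libraries, for the synthetases and the lists of genes around them; filled points reached the level floor, open points did not, orange bars are medians and dashed lines mark 1.5-fold. The synthetase medians lie near 0 (-0.03 and 0.03), and the median of the delivery factors is -0.52. The lists were chosen with earlier results of these data known, and differences between them were not tested.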

How the data were processed

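Per the labels, polyadenylated 3′ ends were sequenced (Lexogen kit, 500 ng RNA, single 75 nt reads) from 1 control and 1 DF culture. Bowtie2, edgeR and the mm10 build appear in the submitters' processing notes, without versions; for the read counter, annotation, normalization and strand setting, nothing is stated. The authors deposited log2 values, from 0 upward. From the values, 97.9% of sorted ranks above 0 lie within 0.1 log2 units between the files, as after quantile normalization, which removes differences in total output. Linear values under 1000 are multiples of 1/8 (tolerance 0.001), so they are no counts, and depth and counting error are unknown.

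Differences are DF minus control of deposited log2 values, without pseudocount. The level floor and the 1.5-fold rule are given in the text. Robust SDs are scaled median absolute deviations over genes of 1 log2 bin of mean level. Values were printed for examined members past 1.5-fold, the 3 most abundant of each compartment, the 2 nearest the limit on each side, and further members by role; these last, and those below the floor, were chosen after their values were seen. In the other lists the rule named examined genes past 1.5-fold and the most abundant gene, and any others were chosen likewise. The members and lists were chosen with earlier results of these data known. All 36 symbols matched GENCODE vM21 (GRCm38, the assembly mm10 names), from which positions and overlaps come. The counting was checked on simulated shifts well past the limit, with little noise, in genes far above the floor. That check cannot speak for genes near the limit or the floor. Alternatives were other floors, fold limits, scalings and member sets. Python 3.11.15, numpy 2.4.6, pandas 2.3.3 and matplotlib 3.10.9 were used.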

Additional observations from a re-analysis of the deposited data

How the results depend on the processing

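Every count rests on a few genes, so most settings that moved one did so by 1 or 2 genes. The cytosolic count of 1 higher gene became 2 with no floor and 0 with the floor at the 75th percentile (9.92), with a limit of 2-fold, after centring on the median of examined genes, and with 64 added to the linear values; under the last 2 settings Dars was at 0.57 and 0.50. The cytosolic count of 1 lower gene became 0 at the higher floor and at 2-fold. The mitochondrial count of 1 higher gene became 4 with no floor, 0 at 2-fold, and 0 without members that overlap any annotated gene or, chosen after seeing the data, any coding gene, since Iars2 is left out by both. The mitochondrial count of 2 lower genes became 3 with no floor, 0 at the higher floor and at 2-fold and 1 without members that overlap any annotated gene, which leaves out Vars2. The mitochondrial median of 0.03 was -0.16 over members at the floor and 0.85 at the higher floor, where Iars2 alone was left. Of 33 differences of 11 members under 3 other scalings 30 stayed within 0.1 log2 units and on the same side of the limit, and 0 changed sign among those past it. No paired analysis was possible because each group holds 1 library. Depth is unknown, so no difference near the floor can be set against counting error.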
